A study of Mus musculus with 22 samples.

Results

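The proteasome genes of 22 single mouse astrocytes are described here, across 4 types of calcium response to ethanol (EtOH). The members were every row of the count matrix whose symbol begins with Psma to Psmg followed by a number. This took 49 of 23453 genes, of which 48 encode proteasome subunits, activators, an inhibitor or assembly factors. The 49th, Psmc3ip, matches by its name only, since its product works in meiotic recombination. The cells came from primary cortical cultures of C57BL/6 pups of postnatal day 0 to 1, which had been shaken and treated with cytosine arabinoside against microglia. Each astrocyte was loaded with the calcium dye Fluo-4, exposed to 100 mM EtOH for 3 min, classified by its fluorescence trace and aspirated into a pipette 3 or 60 min later. The table holds 6 S-type cells (slow rise and slow decay), 6 T-type cells (a transient rise), 5 M-type cells (a mixture of the other patterns) and 5 NR cells, which did not respond. All 4 groups, NR included, met EtOH, so no unexposed cell stands in any comparison.

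No animal, culture or collection time was available for a cell in the labels used here. Each type therefore stands for 1 sample, and the types were compared without a test. Cells were numbered within a type in accession order, which is a name and carries no order. The libraries held 2937786 to 22131076 exonic reads. Counts were divided by a size factor for each library, and a normalized count below is the result. T-type cells 2 and 3 had the lowest size factors, 0.276 and 0.183 against up to 2.31 elsewhere, and the median T-type cell had a read in 9204 genes against 11356 genes in S-type, 11300 in M-type and 10944 in NR cells. The 10 astrocyte markers summed to 1051 to 8972 CPM, which is counts scaled by the library total, in the 22 cells. The summed microglial markers had a median of 0.326 CPM, with medians of 42.1 CPM in NR, 0.101 CPM in S-, 2.47 CPM in T- and 0.253 CPM in M-type cells. The astrocyte markers had medians of 6535 CPM in NR, 3161 in M-, 3824 in S- and 2278 in T-type cells, and the mural and fibroblast markers 364, 1431, 1323 and 1668 CPM in that order. Genes of S phase had medians of 332, 375, 914 and 675 CPM and genes of G2/M 25.0, 56.9, 154.6 and 26.4 CPM, again in that order. Library totals had medians of 1.78e+07 reads in NR, 2.07e+07 in M-, 1.52e+07 in S- and 1.41e+07 in T-type cells. Median depth, library complexity and marker levels therefore differed between the types. The ranges of genes with a read and of these markers overlapped between all types, and the microglial markers ran from 0.0664 to 45.7 CPM within NR. The part of these in the differences below was not tested.

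The proteasome is the protease that degrades ubiquitin-tagged proteins in the cytoplasm and nucleus. Its 20S core is a barrel of alpha and beta rings, in which the beta subunits encoded by Psmb5, Psmb6 and Psmb7 cut peptide bonds. In immune cells, and in other cells after interferon, these are replaced by the inducible subunits Psmb8, Psmb9 and Psmb10, and the resulting immunoproteasome favours peptides for MHC class I presentation. The 19S cap binds ubiquitin chains, removes them and unfolds the substrate with a ring of ATPases. Other caps, the PA28 complexes (Psme1, Psme2 and Psme3) and PA200 (Psme4), open the core without ubiquitin, and the Psmg chaperones help to build it.

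The results below turn on the catalytic subunits, so upstream sequence is shown for 2 constitutive genes (Psmb5, whose level differed between types, and Psmb6, whose level did not pass the fold) and for the inducible gene Psmb10. These are 150-base stretches outside every annotated exon, 5′ to 3′ on the strand of the gene, from RefSeq windows on GRCm38.p6. They lie at chr14:54618023-54618172 (minus strand) for Psmb5, chr11:70525207-70525356 (plus strand) for Psmb6 and chr8:105938445-105938594 (minus strand) for Psmb10. Capitals mark the letters TGACNNNGC, the core of the antioxidant response element, which NRF-family transcription factors bind.
Psmb5: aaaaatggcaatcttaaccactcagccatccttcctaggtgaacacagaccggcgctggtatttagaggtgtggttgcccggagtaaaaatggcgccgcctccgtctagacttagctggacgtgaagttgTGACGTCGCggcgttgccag
Psmb6: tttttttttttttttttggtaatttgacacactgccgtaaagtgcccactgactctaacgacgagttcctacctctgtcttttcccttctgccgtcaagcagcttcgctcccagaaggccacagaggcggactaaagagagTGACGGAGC
Psmb10: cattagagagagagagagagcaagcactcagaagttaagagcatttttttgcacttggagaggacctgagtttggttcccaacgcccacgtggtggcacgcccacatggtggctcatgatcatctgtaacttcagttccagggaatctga
The Psmb5 stretch ends 27 bases before the RefSeq start of the gene and the Psmb10 stretch ends 52 bases before its start. Over the 250 bases before the start, on both strands, TGACNNNGC was present in 5 of the 41 members with a window, namely Psmb5, Psmb6, Psmc6, Psmd9 and Psmd12. That is 12.2% of members against 11.5% of 27025 genes. The interferon-gamma element TTCNNNGAA was present in 2 members (Psmb8 and Psmg1, 4.88%) against 8.13% of genes, and the interferon-stimulated letters GAAANNGAA in 3 members (Psmb3, Psmd4 and Psmd9, 7.32%) against 8.18%. CCAAT was present in 15 members (36.6%) against 37.5% of genes. A match is a description of letters only.

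Transcripts of the proteasome were detected in every astrocyte. Of the 49 genes, 37 had a read in all 22 cells, 10 had a read in some cells, and 2 had none. The absent genes were Psma8, the testis form of an alpha subunit, and Psmb11, the thymic beta subunit. Their count of 0 allows up to 0.00845 CPM over all cells. All 22 cells had a read in 78.7% of the 47 detected members, against 28.9% of the 12719 genes read in 5 cells or more. The members that dropped out in some cells were Psmb9 (read in 10 cells), Psmb8 (16 cells), Psmc3ip (18 cells), Psmg3 and Psmg4 (19 cells each), and Psmb7, Psmb10, Psmd9, Psme1 and Psme3 (21 cells each). T-type cell 3, the shallowest library, had a read in 41 members, the fewest of any cell.

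Together the members took 3360713 reads, or 0.423% (T-type cell 2) to 1.59% (T-type cell 5) of the reads of a cell. Their summed level had a median of 9690 CPM in NR cells, 8972 CPM in M-type, 9607 CPM in S-type and 8081 CPM in T-type cells. The 3 members with the most reads, Psmb4, Psma2 and Psmd14, held 24.8% of all member reads. Psmb4, a non-catalytic beta subunit, had normalized counts of 10460 at the lowest, 12929 at the median and 27765 at the highest in S-type cells, and 4766, 21095 and 25329 in T-type cells. It had 11884, 18637, 9796, 5136 and 8387 in M-type cells 1 to 5, and 6684, 14991, 10768, 19650 and 25358 in NR cells 1 to 5. The 4 types overlapped throughout for this gene. Psma2, an alpha ring subunit, ran from 3593 over 7491 to 15898 in S-type and from 2684 over 7221 to 26699 in T-type cells, with 2964, 10292, 7074, 6969 and 6281 in M-type and 7177, 6677, 6839, 9807 and 6718 in NR cells. All NR cells lay within the ranges of the other types for it.

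Per kilobase of transcript, the core was more abundant than the cap, and the inducible subunits were lowest. The other 19S subunits are the Psmd genes, which here take in the chaperone genes Psmd5, Psmd9 and Psmd10. The median member of the alpha ring had a mean normalized count of 2938 per kilobase, the constitutive beta ring 2383, the ATPases 1142, the other 19S subunits 889, the assembly factors 483, the activators with Psmf1 415, and the inducible subunits 77.1. The 7 detected alpha subunits lay within a 4.50-fold range, from 1409 (Psma3) to 6334 (Psma7). The beta ring, whose subunits are built in at equal number, ran from 88.2 per kilobase for Psmb7 to 13173 for Psmb4. These levels rest on reads from amplified antisense RNA, in which coverage along a transcript is uneven, and on unique alignments. Of the members, 10 have a near-identical copy elsewhere in the genome, at 90% identity or more. None of the 20 copies has a row in the table, and reads that align equally well to a member and its copy were not counted. The 10 had a median of 2019 per kilobase against 780 for the 37 others.

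**Figure D1:**
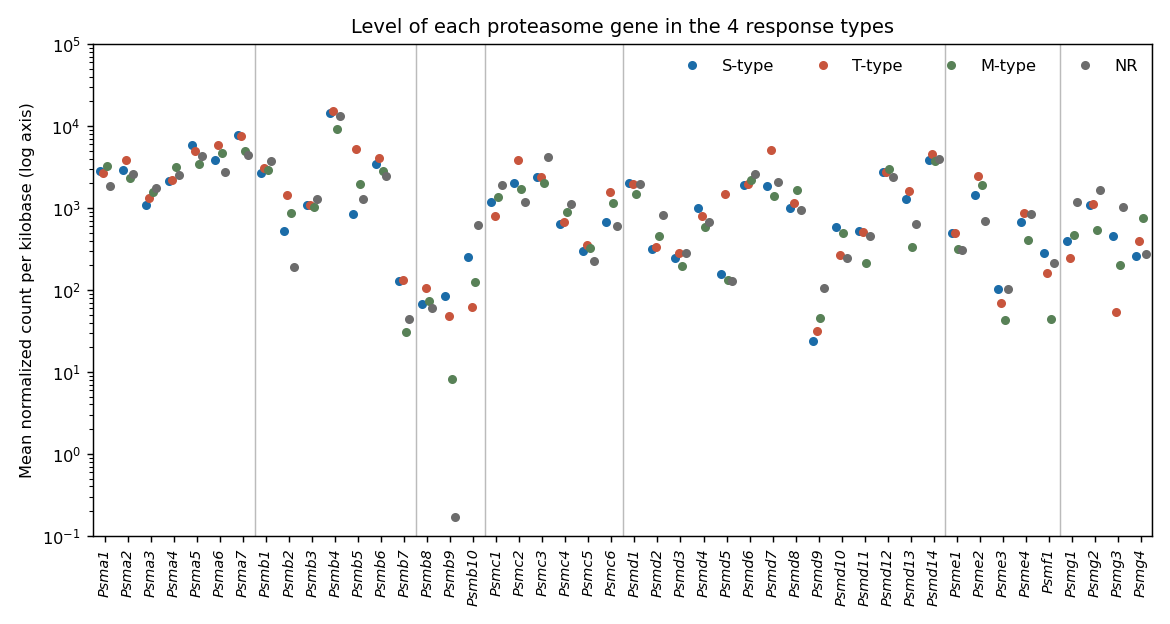
Mean normalized count per kilobase of transcript (log axis) of each detected proteasome gene except Psmc3ip, 1 point for each of the 4 response types; vertical lines separate alpha ring, constitutive beta ring, inducible beta subunits, 19S ATPases, other 19S subunits, activators with Psmf1, and assembly factors. Psmb4 was highest, Psmb7, Psmb8, Psmb9 and Psmd9 sat near the bottom, and the NR point of Psmb9 rests on 2 reads.

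Within this range the members varied less from cell to cell than most genes with a mean normalized count of at least 100, though levels were not matched. Over 22 cells the standard deviation (SD) of log2(normalized count + 1) had a median of 1.30 for the 46 members with a mean normalized count of at least 100, against 2.79 for 8497 genes at that level. Among genes read in every cell it was 1.08 for 37 members and 1.74 for 3670 genes. The steadiest was Psmb1, a beta ring subunit, with 2902 to 13555 normalized counts over all cells (SD 0.55), followed by the alpha subunit Psma7 with 2564 to 11851 (SD 0.71) and Psmb4 (SD 0.75). The most variable of the members read in every cell were Psmf1, which encodes the proteasome inhibitor PI31, with 0.648 to 3230, the chaperone gene Psmg1 with 1.41 to 2803, and Psmd10, which encodes the 19S assembly factor gankyrin, with 1.25 to 2505.

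Even so, a single cell often carried a type. The highest cell held a median of 40.8% of the level of a member in NR, 36.1% in M-type, 30.9% in S-type and 38.4% in T-type cells. For genes at a mean normalized count of at least 100 these medians were 48.2%, 43.8%, 41.2% and 57.7%. In 17 of 46 members over 50% of the NR level came from 1 cell. The same was so of 3 members in S-type, 7 in M-type and 12 in T-type. These are 37.0%, 6.52%, 15.2% and 26.1% of members, against 45.7%, 31.5%, 36.3% and 63.5% of genes at that level. NR cell 5 was the highest of all 22 cells for 12 members: Psmb1, Psmb3, Psmb10, Psmc1, Psmc3, Psmd2, Psmd3, Psmd6, Psmd11, Psmg1, Psmg2 and Psmg3. The same cell was highest for 10.6% of genes at that level. T-type cell 2 was highest for 7 members and for 13.9% of genes.

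Members did not move together closely from cell to cell. Over 22 cells the median Spearman rho was 0.08 over the 666 pairs of members read in every cell, 0.15 over the 78 pairs within the 20S core and 0.09 over the 171 pairs within the 19S cap, with a median of -0.00 over all pairs of genes read in every cell. The highest pairs were Psmb3 with Psmc3 at 0.76 and Psmd3 with Psmd11 at 0.69, and the lowest was Psma6 with Psmg2 at -0.63. The points are cells that share libraries, size factors and types, so these values are descriptions.

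**Figure D2:**
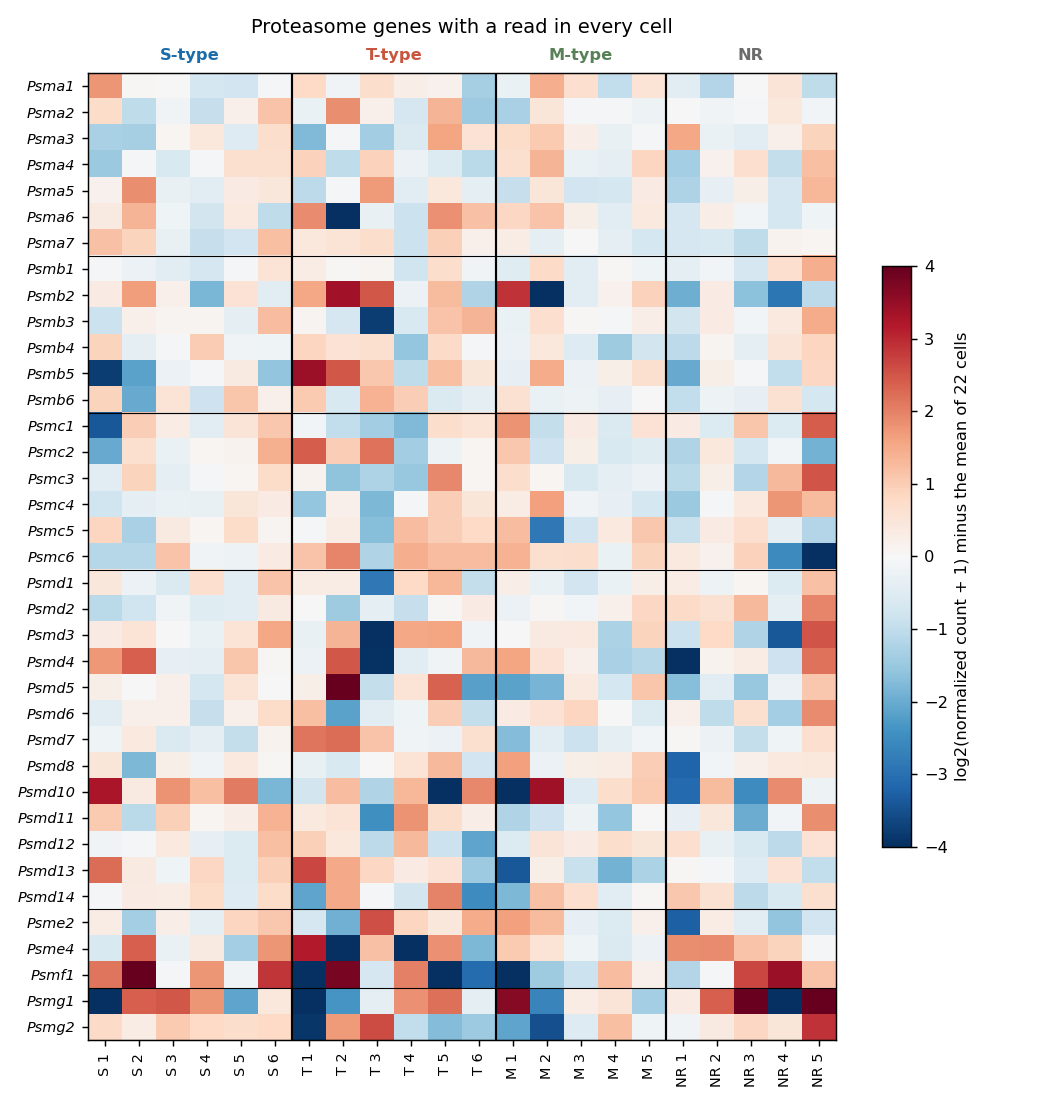
Each cell is a column, grouped by response type, and each of the 37 proteasome genes read in every cell is a row; the colour is log2(normalized count + 1) minus its mean over 22 cells, held at -4 and 4. Rows such as Psmb1 and Psma7 stay pale, Psmf1, Psmg1 and Psmd10 swing between both ends of the scale, and no row separates the 4 types.

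The classification gives 4 comparisons, of T-type with S-type, the 2 uniform responses, and of each responding type with NR. The last 3 share the NR cells. The level of a type is its mean normalized count over cells, a difference is the log2 ratio of 2 levels, and a member is counted as higher or lower at 2-fold or more. T-type against S-type put 6 of 47 members higher and 3 lower, or 12.8% and 6.38%, where 25.7% and 32.5% of 12517 genes were past the same fold. T-type against NR put 12 members higher and 6 lower (25.5% and 12.8%), against 28.4% and 32.8% of genes. S-type against NR put 7 higher and 5 lower (14.9% and 10.6%), against 25.1% and 22.5% of genes, and M-type against NR put 5 higher and 10 lower (10.6% and 21.3%), against 19.8% and 28.1%. In each of the 4 comparisons the share of members past the fold was below that of all genes, in both directions.

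Members are read in more cells than most genes, so the counts were also taken among the 3670 genes read in every cell, where 37 members remain. There T-type against S-type had 5 members higher and 1 lower (13.5% and 2.70%, against 29.2% and 11.6% of genes). T-type against NR had 9 and 3 (24.3% and 8.11%, against 31.5% and 13.0%), and S-type against NR 4 and 2 (10.8% and 5.41%, against 11.9% and 11.4%). M-type against NR had 3 and 6 (8.11% and 16.2%, against 8.86% and 14.1%). At a mean normalized count of at least 100 the 46 members gave 6 and 3 for T-type against S-type (26.4% and 24.7% of genes), 11 and 6 for T-type against NR (29.5% and 25.0%), 6 and 5 for S-type against NR (20.9% and 18.1%) and 4 and 10 for M-type against NR (15.9% and 22.1%). Among genes read in every cell the members past the fold in S-type and M-type against NR lay near the background, except for the lower ones in S-type.

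The median log2 ratio of the 47 members was 0.10 for T-type against S-type, where the median of all genes was -0.09. It was 0.21 against -0.07 for T-type and NR, 0.14 against 0.03 for S-type and NR, and -0.20 against -0.20 for M-type and NR. The direction in the T-type comparisons depended on the scaling. By size factors 32 of 47 members were above 0 in T-type against S-type, and by mean CPM 10 were, where the median of all genes moved to -0.46. The split of members past the fold went with it, from 6 higher and 3 lower to 3 and 5, and for T-type against NR from 12 and 6 to 6 and 8. Relative to the median of all genes, 36 members were above by size factors and 31 by mean CPM in T-type against S-type. That median takes in genes not read in every cell. Among genes read in every cell, 29.2% were higher and 11.6% lower in this comparison, against 13.5% and 2.70% of members. A median over those genes was not taken, so no relative rise of the members is read from the 36 and 31. No member had all its cells of a type above all cells of the other in any comparison, where 0.783%, 1.01%, 0.412% and 0.602% of genes did in the order given.

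**Figure D3:**
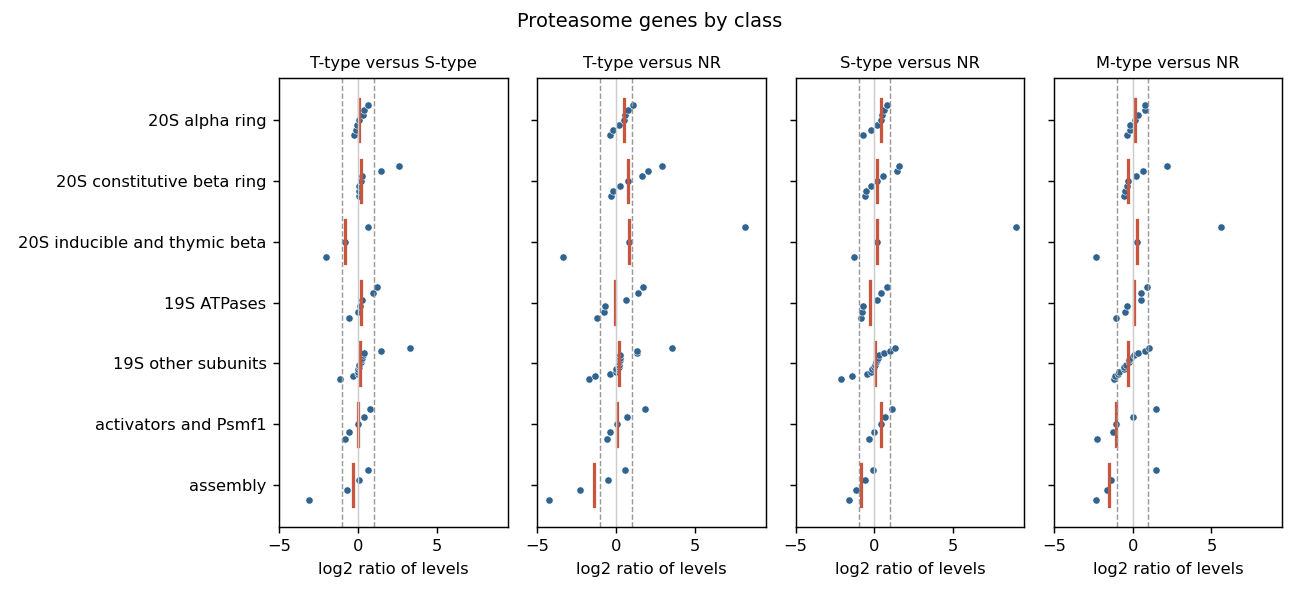
Log2 ratio of the levels of 2 types (horizontal axis) for each proteasome gene except Psmc3ip, by class (vertical axis) and for the 4 comparisons. Red bars are class medians and dashed lines mark 2-fold. Most points lie between the dashed lines. Of the 47 members compared, 38 were inside for T-type against S-type and 29 for T-type against NR. Psmb9 stands far to the right in the 3 comparisons with NR.

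The alpha ring gates the barrel. None of its 7 detected genes was past 2-fold in T-type against S-type, S-type against NR or M-type against NR. The medians were 0.05, 0.43 and 0.15. Among genes read in every cell, 29.2%, 11.9% and 8.86% were higher in these comparisons, and 11.6%, 11.4% and 14.1% lower. In T-type against NR these shares were 31.5% and 13.0%. Nothing particular to the ring is read from 7 genes. In T-type against NR the median was 0.50 and Psma6 was past the fold at 1.09, or 0.77 by mean CPM. Psma7 was above NR in 5 of the 6 T-type cells, with a log2 ratio of 0.76. Without T-type cell 4 (2811 normalized counts) its T-type cells did not overlap the NR cells, as was so for 1.84% of genes. That share leaves out the same cell for every gene, where the cell was picked for Psma7, so it is a lower bound.

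Of the 3 catalytic beta subunits, only Psmb5 was past 2-fold in T-type against S-type, while all 3 had log2 ratios above 0 in T-type against NR. Psmb5 encodes the chymotrypsin-like subunit, which is the main target of bortezomib, and it lies at chr14:54614119-54618022. Its normalized counts ran from 88.8 over a median of 727 to 1570 in S-type cells and from 604 over 2711 to 13301 in T-type cells. They were 992, 3436, 1060, 1456 and 1932 in M-type cells and 306, 1460, 1164, 627 and 2168 in NR cells. The T-type cells were higher except for T-type cell 4, which lay within the S-type range. Without it the S-type and T-type cells did not overlap, as was so for 1.57% of genes with the same cell left out. That cell was picked for Psmb5, and with a cell picked for each gene the share would be at least as large. The log2 ratio was 2.61 for T-type against S-type, with 1.94 to 2.95 when any 1 cell was left out and 1.64 to 2.61 over the other settings. Against NR it was 2.02, and S-type and M-type were at -0.59 and 0.63.

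Psmb6, the caspase-like subunit, showed no such difference, at 548 to 4778 normalized counts with a median of 2919 in S-type cells and 1472 to 5929 with a median of 3073 in T-type cells. Its M-type cells held 3430, 1846, 1959, 1765 and 2265 and its NR cells 1136, 1950, 1778, 3449 and 1375. The ranges overlapped in every comparison, and the log2 ratio was 0.25 for T-type against S-type and 0.76 for T-type against NR. Psmb7, the trypsin-like subunit, was low in all cells, at 13.4 to 517 with a median of 99.1 in S-type and 0 to 323 with a median of 138 in T-type. Its M-type cells held 61.3, 28.0, 18.8, 30.6 and 41.5 and its NR cells 28.5, 50.5, 48.2, 99.9 and 26.0. The ratios against NR were 1.62 for T-type (0.79 by mean CPM) and 1.55 for S-type, the latter 0.55 without S-type cell 2, and the cells overlapped. For T-type against S-type the Psmb7 ratio was 0.07, or 1.07 without S-type cell 2. Exons of Nek6 cover 34.9% of the Psmb7 transcript on the opposite strand, and the sources used here do not say whether counting used the strand. Nek6 held 125440 reads against 2241 for Psmb7, so the low Psmb7 level is uncertain.

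Of the inducible counterparts, Psmb8 (which replaces Psmb5) was within 2-fold in all 4 comparisons. Its normalized counts ran from 0 over 99.8 to 254 in S-type cells, from 0 over 2.11 to 751 in T-type cells, and stood at 15.6, 410, 14.1, 0 and 160 in M-type cells and 118, 65.2, 34.5, 275 and 0 in NR cells. It had a read in 5 of 6 S-type, 3 of 6 T-type, 4 of 5 M-type and 4 of 5 NR cells, so detection varied inside every type. T-type cell 2 held 73.8% of the T-type level. Without that cell the log2 ratio of T-type against S-type went from 0.64 to -1.02, past the fold in the other direction. Psmb9, which replaces Psmb6, was nearly absent from NR cells, where NR cell 2 had its only 2 reads. S-type cells held 759 reads, T-type cells 582 and M-type cells 79. The log2 ratios against NR, with 95% intervals that cover counting error only, were 8.97 (7.11 to 12.02) for S-type, 8.14 (6.28 to 11.19) for T-type and 5.59 (3.69 to 8.66) for M-type. After thinning, NR cells held 0 reads, and set at 3 reads for the group this left the same ratios at 5.58, 4.56 and 1.69 or more. With a pseudocount of 1 they were 6.55, 5.73 and 3.28. These sums were not shared by the cells of a type. S-type cell 1 (608 normalized counts) held most of the S-type level, T-type cell 5 (373) that of T-type and M-type cell 2 (53.2) that of M-type, where M-type cell 3 had 1.41 and the others 0. The medians were 0 in M-type, 0.704 in T-type and 8.40 in S-type cells. The ratio was 6.03 for S-type without S-type cell 1 and 3.44 for T-type without T-type cell 5. Exons of Tap1 cover 15.7% of the Psmb9 transcript on the opposite strand.

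Psmb10, which replaces Psmb7 and lies at chr8:105935735-105938444, was lowest in T-type cells. Its normalized counts ran from 237 over 307 to 525 in S-type cells and from 0 over 21.8 to 253 in T-type cells. They were 1.88, 264, 118, 144 and 296 in M-type cells and 14.0, 365, 651, 836 and 2248 in NR cells. All T-type cells but T-type cell 1 lay below every S-type cell, and NR cells were above every T-type cell except NR cell 1. Without the excepted cell the types did not overlap, as was so for 1.39% and 1.59% of genes with that cell left out. As these cells were picked for Psmb10, the shares are lower bounds. The log2 ratio was -2.04 for T-type against S-type (-2.84 to -1.78 with any 1 cell left out) and -3.35 against NR (-4.16 to -2.53). By mean CPM, and after thinning every library to the smallest, the S-type and T-type cells did not overlap, as was so for 0.895% and 0.754% of genes. M-type was also lower than NR, at -2.32 (-2.64 to -1.50), and S-type was at -1.31, or -0.49 without NR cell 5. NR cells 1 to 5 held 45.1, 45.7, 0.0664, 42.1 and 0.792 CPM of the microglial markers, in the order of the Psmb10 counts above. The relation of the markers to Psmb10 was not tested.

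Per kilobase, the inducible subunit was a minor form in the pairs of Psmb5 and Psmb6. The level of Psmb8 was 4.75% of that of Psmb5 in NR, 3.73% in M-type, 7.85% in S-type and 2.01% in T-type, and it was above Psmb5 in 1 cell, of S-type. Psmb9 was at most 2.43% of Psmb6, in S-type, and was above it in 0 cells. Psmb10 exceeded Psmb7 in 14 cells, in 5 of 6 S-type, 1 of 6 T-type, 4 of 5 M-type and 4 of 5 NR cells, with the uncertainty of the Psmb7 counts given above.

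**Figure D4:**
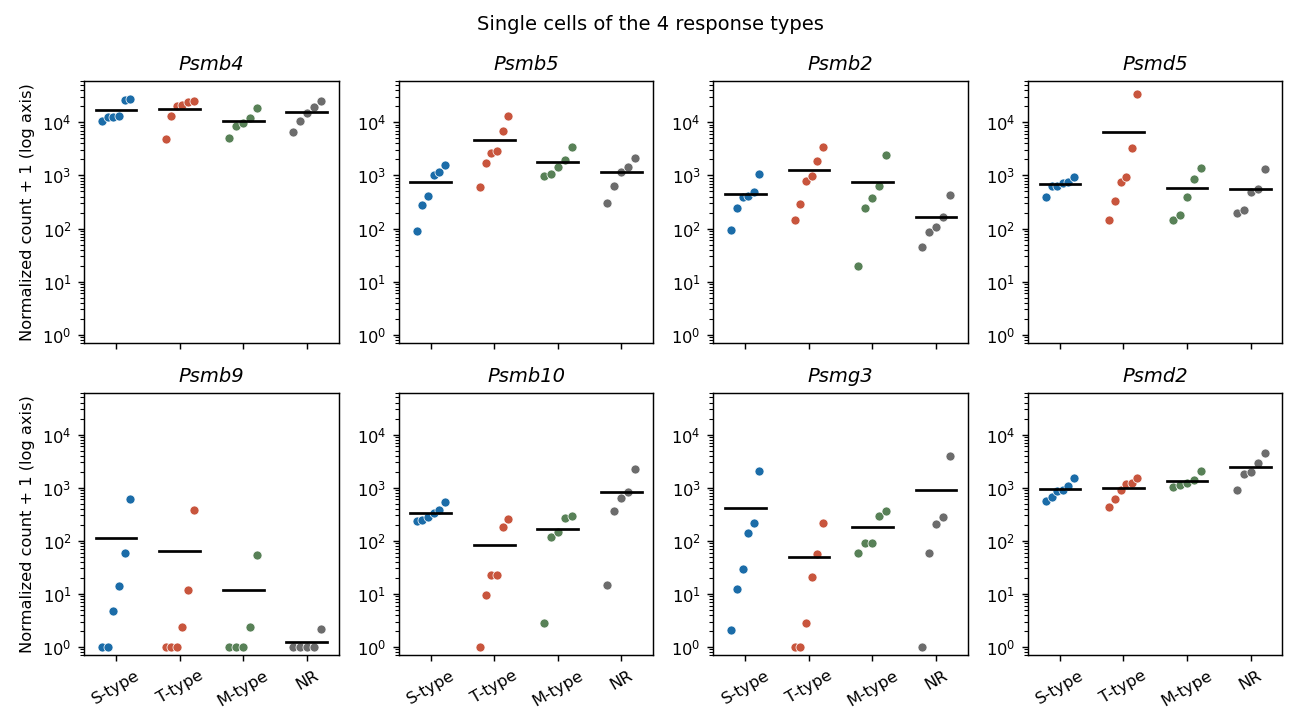
Normalized count + 1 (log axis) of 8 proteasome genes in each of the 22 cells, by response type, with a bar at the mean of each type. All T-type cells but 1 lie above every S-type cell for Psmb5 and all but 1 below every S-type cell for Psmb10, while M-type and NR cells overlap them, Psmb4 overlaps throughout, Psmb9 is at or near 0 in all NR cells, and the T-type mean of Psmd5 and the NR mean of Psmg3 follow 1 cell each.

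Of the non-catalytic beta genes, Psmb2 had its lowest level in NR. Its normalized counts ran from 92.9 over 401 to 1070 in S-type and from 143 over 888 to 3434 in T-type cells. They were 2453, 18.9, 247, 375 and 628 in M-type cells and 84.4, 423, 107, 43.7 and 160 in NR cells. The ranges overlapped, and the log2 ratio to NR was 2.93 for T-type, 1.46 for S-type and 2.19 for M-type, which fell to 0.95 without M-type cell 1. T-type against S-type was 1.47, or 0.85 without T-type cell 2 and 0.29 without T-type cells 2 and 3. Psmb1, Psmb3 and Psmb4 stayed within 2-fold in all 4 comparisons.

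The 19S base holds the ATPase ring that threads the substrate into the core. In T-type against S-type 1 of 6 ATPase genes was past 2-fold. Of genes read in every cell, 29.2% were higher and 11.6% lower in that comparison. The ATPase gene was Psmc6, at 673 to 3264 normalized counts with a median of 1328 in S-type cells. Its T-type cells held 655 to 5752 with a median of 3535. Its NR cells held 1975, 1689, 2846, 254 and 11.1 and its M-type cells 3933, 2315, 2416, 1245 and 2747. T-type cell 3 was low and the other T-type cells were above all NR cells. The log2 ratio was 1.18 against S-type (0.98 to 1.56) and 1.35 against NR (1.03 to 1.82). By mean CPM these were 0.58 and 0.75, under the fold. Against NR, Psmc2 was at 1.72 in T-type (0.80 by pooled CPM) and Psmc1 at -1.24, the latter -0.47 without NR cell 5, and Psmc3 was at -1.05 in M-type, or -0.19 without NR cell 5.

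Among the other 19S subunits, Psmd7 encodes the partner of the deubiquitinase subunit Psmd14, and it was higher in T-type than in both S-type and NR. It had 1741 to 4370 normalized counts with a median of 2767 in S-type cells and 2842 to 15932 with a median of 6256 in T-type cells. Its M-type cells held 1017, 2433, 1853, 2555 and 3137 and its NR cells 3432, 2842, 1717, 3005 and 5332. The ranges overlapped, with log2 ratios of 1.48 against S-type (1.17 to 1.65 with any 1 cell left out) and 1.32 against NR (1.02 to 1.57). By mean CPM the first was 0.74, and by pooled CPM the second was 0.60. Psmd14 itself was at 0.24 for T-type against S-type. It ran from 3347 over 5956 to 7920 in S-type and from 844 over 3772 to 19091 in T-type cells, with 1381, 10872, 7656, 3563 and 4969.6 in M-type and 10048, 7335, 2341, 3136 and 7511 in NR cells.

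Psmd2, a scaffold that binds ubiquitin receptors, was highest in NR. Its NR cells held 2000, 1816, 2933, 909 and 4544 normalized counts and its M-type cells 1010, 1223, 1109, 1365 and 2088. S-type cells ran from 557 over 870 to 1527 and T-type cells from 439 over 1036 to 1504. NR cell 4 was the only NR cell inside the S-type and T-type ranges. Without it neither type overlapped NR, as was so for 0.959% and 2.27% of genes with that cell left out. As the cell was picked for Psmd2, these shares are lower bounds. The log2 ratio to NR was -1.39 for S-type (-1.60 to -1.04) and -1.32 for T-type (-1.53 to -0.97).

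Several large 19S ratios rested on 1 cell. Psmd5, a chaperone of the ATPase ring, had a log2 ratio of 3.27 for T-type against S-type. T-type cell 2 held 33902 normalized counts of it, or 86.3% of the T-type level, where the T-type cells ran from 142 with a median of 839 and S-type cells from 391 over 684 to 926. Its M-type cells held 143, 176.5, 840.1, 395 and 1374 and its NR cells 196, 479, 222, 547 and 1345. Without that cell the ratio was 0.67, and against NR it went from 3.55 to 0.95. Psmd9, another such chaperone, was at -2.14 for S-type and -1.74 for T-type against NR. NR cell 4 held 1158 normalized counts of it where the other NR cells held 92.3, 22.1, 3.60 and 78.8, and without it the signs turned, to 0.32 and 0.72. Its other cells ran from 21.7 over 55.6 to 135 in S-type and from 0 over 79.2 to 169 in T-type, and M-type held 102, 51.8, 92.4, 240.2 and 108. Psmd10 ran from 66.0 over 690.0 to 2310 in S-type and from 8.42 over 352 to 902 in T-type cells, with 1.25, 2505, 165.5, 384 and 494 in M-type and 26.7, 571, 40.3, 883 and 208 in NR cells. It was at -1.13 for T-type against S-type, or -0.52 without S-type cell 1, at 1.29 for S-type against NR, or 0.67 without S-type cell 1, and at 1.04 for M-type against NR, or -0.40 without M-type cell 2. Psmd13 (1.32 in T-type against NR) and Psmd11 (-1.12 in M-type against NR) were the other 19S members past the fold. Psmd13 was at 0.72 without T-type cell 1 and at 0.55 by mean CPM, and Psmd11 at -0.38 without NR cell 5. Psmd13 reached 1.00 in S-type, or 0.48 without S-type cell 1.

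Of the activators, Psme2 was lower in NR than in all responding types, while its PA28 partner Psme1 was not past the fold. Psme2 had 434 to 2367 normalized counts with a median of 1346 in S-type and 290 to 6611 with a median of 1772 in T-type cells. Its M-type cells held 3480, 2668, 894, 761 and 1281 and its NR cells 115, 1357, 805, 369 and 652. The ranges overlapped, and the log2 ratios to NR were 1.85 for T-type (1.21 to 2.29), 1.08 for S-type (0.81 to 1.53) and 1.46 for M-type (1.09 to 1.90). Psme1 had ratios of 0.69, 0.69 and 0.04 in the same order, with 197, 312, 433, 507 and 273 in NR cells and 651, 450, 149, 165.5 and 358 in M-type cells. It ran from 66.0 over 583 to 893 in S-type and from 0 over 315 to 1669 in T-type cells, so all types overlapped. Psme2 shares 99.4% identity with a copy, so its count covers only its unique bases.

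Psme3, the nuclear PA28 gamma, ran from 0.888 over 237 to 617 in S-type and from 0 over 154.2 to 439 in T-type cells, with 3.75, 112, 173.5, 44.6 and 235 in M-type and 110, 512, 723, 2.99 and 3.71 in NR cells. Psme4, which encodes PA200, ran from 879 over 2372 to 11705 in S-type and from 21.9 over 2844 to 20350 in T-type cells, with 4628, 3243, 1993, 1486 and 1882 in M-type and 8025, 8356, 4892, 4164 and 2180 in NR cells. Both were lower in M-type than in NR, at -1.25 (-1.70 to -0.47) and -1.06 (-1.36 to -0.86), with overlapping cells. Psmf1 was lower there too, at -2.25 (-3.02 to -1.50), with 3.75, 70.7, 105, 450 and 220 in M-type and 85.0, 187.2, 1220, 2129 and 427 in NR cells. M-type cells 3, 4 and 5 lay within the NR range. Its S-type cells ran from 175.7 over 751 to 3230 and its T-type cells from 0.648 over 70.9 to 2709. The activator class had 3 of 5 members lower and 1 higher in M-type against NR, with a median of -1.06. Of all genes, 28.1% were lower and 19.8% higher in that comparison, and nothing particular to the class is read from 5 genes. By the median over cells Psme3 was at 0.020.

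The assembly chaperones had class medians against NR of -1.41 for T-type, -0.88 for S-type and -1.48 for M-type. Without NR cell 5 these were -0.64, -0.03 and -0.15, so they rest largely on that cell. Psmg1 and Psmg2 form a pair that gathers the alpha subunits. Psmg1 ran from 1.78 over 367 to 876 in S-type and from 1.41 over 119 to 708 in T-type cells, with 1931, 23.8, 189, 220 and 60.1 in M-type and 192, 809, 2395, 2.99 and 2803 in NR cells. NR cell 4 was among the lowest of all cells, so every type overlapped NR, and the log2 ratios were -2.29 (-2.93 to -1.74) for T-type, -1.60 for S-type (-1.97 to -1.05) and -1.36 for M-type (-3.33 without M-type cell 1 and -0.81 without NR cell 5). Psmg2 was at -1.60 for M-type against NR, with 155.8, 58.8, 478, 1562 and 604 against 614, 876, 1211, 953 and 5006. Its cells did not overlap without M-type cell 4, as was so for 1.42% of genes with that cell left out. As the cell was picked for Psmg2, this share is a lower bound. Without NR cell 5 the Psmg2 ratio was -0.68.

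Psmg2 separated its cells in T-type when T-type cells 2 and 3 were left out. S-type cells ran from 832 over 1163 to 1398 and all T-type cells from 45.0 over 294 to 4124. T-type cells 2 and 3 held the 2 highest T-type counts of Psmg2, 2194 and 4124, and leaving them out was chosen after seeing the data. Without these libraries the log2 ratio was -2.45 against S-type and -3.05 against NR. No cells overlapped in either, as was so for 2.01% and 2.80% of genes. With them it was 0.07 and -0.54.

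Psmg3 and Psmg4 form the second pair of chaperones. Psmg3 had a log2 ratio of -4.24 for T-type against NR and -3.08 against S-type. NR cell 5 held 3961 normalized counts of it against 0, 207, 57.5 and 281 in the other NR cells, and S-type cell 1 held 2029 where the S-type cells ran from 1.08 with a median of 83.9. T-type cells ran from 0 over 10.8 to 211, and M-type cells held 88.8, 357, 58.6, 91.3 and 292. Leaving these cells out gave -1.51 and -0.73, and M-type against NR went from -2.34 to 0.38. Psmg4 was higher in M-type than in NR, at 1.49 (1.17 to 2.59), with 738, 481, 206, 372 and 310 against 15.2, 229, 472, 35.9 and 0, and NR cells 2 and 3 were within the M-type range. Psmg4 ran from 0 over 186.3 to 261 in S-type and from 0 over 6.54 to 1299 in T-type cells, and was at 0.62 for T-type against S-type.

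Psmc3ip, which is no proteasome subunit, had the widest ratios after Psmb9, at 5.16 for T-type and 3.84 for S-type against NR. T-type cell 5 held 6702 normalized counts and S-type cell 1 held 2027, where the cells ran from 7.25 in T-type and from 0 in S-type and the medians were 54.2 and 207. Its M-type cells held 2.50, 179, 1.88, 0 and 1.30 and its NR cells 0, 50.5, 0.719, 114 and 0. Without T-type cell 5 the T-type ratio was 1.11, and T-type against S-type went from 1.32 to -2.74. Exons of Mlx cover 29.8% of its transcript on the opposite strand.

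Core and cap were also summed over their genes. The 20S sum ran from 1864 CPM (T-type cell 2) to 8055 CPM (T-type cell 5) and the 19S sum from 2250 to 6337 CPM in the same cells. The core sum was higher in 18 of 22 cells. The ratio of core to cap had a median of 1.24, from 0.732 in T-type cell 4 to 2.16 in T-type cell 3. The 19S sum takes in the chaperone genes Psmd5, Psmd9 and Psmd10, which are not cap subunits. Psmd5 held 9348 reads in T-type cell 2, and sums without these genes were not taken. Over the 22 cells Pearson's r was 0.62 and Spearman's rho 0.41, as a description of cells that share libraries. Without the 2 cells farthest from the median of the 20S sum r was 0.28, so the relation rests largely on them. The median ratio was 1.26 in NR, 1.18 in M-type, 1.40 in S-type and 1.24 in T-type cells, with overlapping ranges.

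**Figure D5:**
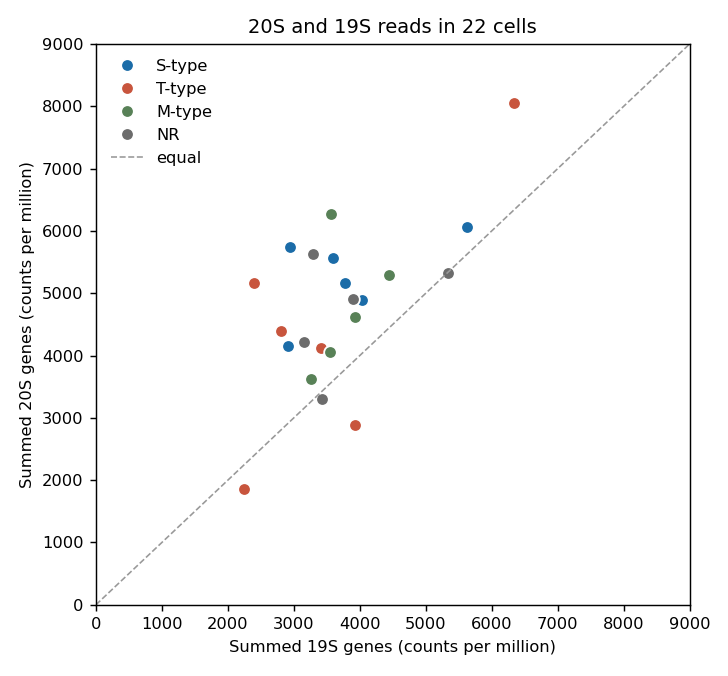
Summed CPM of the 19S genes (horizontal axis) and the 20S core genes (vertical axis) in each of 22 cells, coloured by response type. A dashed line marks equal sums. Most cells lie on the core side of the line, and the lowest and the highest cell of both sums are T-type.

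Other genes of the pathway were taken from fixed lists. For each list, 25.7% of all genes were past 2-fold higher and 32.5% lower in T-type against S-type, and 28.4% and 32.8% in T-type against NR. Among 11 proteasome regulators, T-type against S-type had 4 past 2-fold higher and 2 lower, with a median log2 ratio of 0.63. By mean CPM these were 1 and 3, with a median of -0.09, so the direction depended on the scaling. Here the cells did separate for 1 gene. Adrm1, which encodes the ubiquitin receptor of the 19S base, had 27.5 to 69.8 normalized counts in S-type and 90.1 to 471 in T-type cells, a log2 ratio of 2.44 (2.16 to 2.62 with any 1 cell left out). By mean CPM the ratio was 1.89 and after thinning 2.16, and in both the cells overlapped. Uchl5, the deubiquitinase that binds Adrm1, was at -2.28 in the same comparison and at 3.15 for S-type against NR, with S-type cell 2 (9436) holding 59.8% of the S-type level. Pomp, the maturation factor of the core, was at 1.24.

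The regulator AI314180, the mouse gene for the proteasome adaptor Ecm29, was highest in NR. Its NR cells held 1073, 679, 1674, 6004 and 3105 normalized counts and its M-type cells 2826, 125, 968, 245 and 1010. S-type cells ran from 261 over 430 to 626 and T-type cells from 10.9 over 141 to 509. All NR cells were above all S-type and all T-type cells, by size factors, mean CPM, TMM (trimmed mean of M-values) factors and thinned counts alike. The log2 ratio was -3.69 for T-type (-4.25 to -3.07 with any 1 cell left out) and -2.49 for S-type (-2.74 to -1.88), and M-type was at -1.28 with overlap. The share of all genes with such separation is that given above, 1.01% and 0.412%.

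Of 16 ubiquitin and shuttle genes, 5 were higher and 1 lower in T-type against S-type (median 0.77) and 4 and 0 in T-type against NR (median 0.53). By mean CPM they were 0 and 2 (median 0.23) and 1 and 1 (median 0.17), where the medians of all genes were -0.46 in both comparisons. Of 8 antigen processing genes, 0 were higher and 4 lower in T-type against S-type (median -1.02), and 1 and 5 in T-type against NR (median -1.26). By mean CPM the counts were as many, with medians of -1.05 and -1.57. The list is short, and nothing particular to it is read from these counts. Tap2, a subunit of the peptide transporter, had 3 reads in all T-type cells together. S-type against NR had 2 of the 8 antigen processing genes higher and 0 lower, and M-type against NR 1 and 2, where 25.1% and 22.5% of all genes were past the fold in the former and 19.8% and 28.1% in the latter. For comparison with complexes of like kind, T-type against S-type had 1 higher and 2 lower of 9 COP9 signalosome genes (median 0.26) and 5 and 0 of 8 CCT chaperonin genes (median 1.17), or 1 and 2 (median -0.41) and 2 and 0 (median 0.51) by mean CPM. Against NR, T-type had 1 and 2 of the former and 4 and 0 of the latter, or 0 and 2 and 2 and 1 by mean CPM. The largest CCT levels of T-type followed 1 cell each. T-type cell 2 held 331577 normalized counts of Cct4 and 44959 of Cct8, and T-type cell 3 held 4216 of Cct6a. The other T-type cells held at most 6700, 6477 and 520. Cct2 and Cct5 were also past the fold in T-type against S-type, at 1.03 and 1.31.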

How the data were processed

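The authors amplified the antisense RNA of single cells in 2 rounds, sequenced stranded libraries as paired 75-base reads, trimmed these and used STAR with GRCm38 for alignment and VERSE, a modified HTSeq, to count uniquely aligned exonic reads. Versions are not given in the sources used here. The deposited values are raw counts per gene, without molecular identifiers, so intervals cover counting error only. Each library was scaled by the median of its ratios to the geometric mean library over the 3670 genes read in every cell, and genes read in under 5 cells were left out, leaving 12719. A level of 0 was set to 3 reads per type, and genes at 3 reads or fewer in both types were left out of a comparison. The study tested types with cells as replicates. Here the types were compared without a test, by log2 ratios of mean normalized counts. Ratio calculation was tested on simulated data. Gene positions and exon overlaps come from GENCODE on GRCm38, and near copies were found with BLAST+ 2.17.0 at 90% identity over 50% of a transcript. Python 3.11.15, pandas 2.3.3, SciPy 1.17.1 and edgeR 4.0.16 (TMM factors only) were used.

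The members and gene lists were chosen with earlier results of these data known. Values over the cells (each cell for M-type and NR, and the lowest, the median and the highest for S- and T-type) are given for the 3 members with the largest ratios in each direction and comparison at a mean normalized count of at least 10, the catalytic pairs, the activators and the 3 members with the most reads. Psmb2, Psmc6, Psmd2, Psmd7, Psmg2 and Psmg4 are also given outside that rule in some comparisons, chosen after their values were seen. Alternatives were CPM, TMM, thinning, a pseudocount of 1, other filters, the median over cells, and leaving out each cell. Class medians without NR cell 5 and the other lists by mean CPM were added after seeing the data. With no test, a median or the ratio of a named gene was taken as moved when it shifted by over 1 SD between cells of a type, and a count when it shifted by over 1.5 times.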

Additional observations from a re-analysis of the deposited data

Results flagged for a closer look

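Of 56 sums and ratios over cells of a type, 3 had a cell whose gap to its nearest neighbour passed the 95% value of Dixon's ratio, where chance gives about 1 in 20. The summed level of the proteasome genes was 12784 CPM in S-type cell 6, where the other S-type cells ran from 8284 to 9728 CPM. It was 15869 CPM in T-type cell 5, where the other T-type cells ran from 4233 to 8578 CPM. The ratio of 20S to 19S sums was 1.75 in M-type cell 2, where the other M-type cells ran from 1.11 to 1.19. By the same rule, 9 of 47 members had an outlying cell in S-type and 9 in T-type (19.1% each), and 6 in M-type and 6 in NR (12.8% each), against 29.0%, 46.9%, 21.0% and 25.7% of genes with a mean normalized count of at least 100.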

How the results depend on the processing

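TMM factors, a pseudocount of 1, no filter and a mean normalized count of at least 100 moved no count and no median of the members. For T-type against S-type, the 6 higher members became 3 by pooled and by mean CPM. The 3 lower members became 5 by pooled CPM, mean CPM, thinning and without T-type cells 2 and 3 (chosen after seeing the data), and 9 by the median over cells. The members without overlap went from 0 to 1 by pooled CPM, mean CPM, thinning and without T-type cells 2 and 3. For T-type against NR, the 12 higher members became 7 by pooled CPM and 6 by mean CPM, and the members without overlap became 2 without T-type cells 2 and 3. The summed share fell from 9174 to 6892 CPM without its 3 largest members. The median over cells turned the sign of Psmc3ip in T-type against S-type (-1.93), Psmd9 in T-type (0.0067) and M-type (0.37) against NR, and Psmb9 (-0.32) and Psme3 (0.020) in M-type against NR. With any 1 cell left out, the median log2 ratio ran from -0.03 to 0.23 for T-type against S-type, 0.04 to 0.41 for T-type, -0.04 to 0.26 for S-type and -0.41 to 0.12 for M-type against NR. In the same order the higher members ran from 3 to 8, 11 to 14, 5 to 9 and 3 to 9, the lower members from 1 to 6, 4 to 9, 3 to 7 and 6 to 12, and the members without overlap from 0 to 1 each. Without NR cell 5 the lower members were 4 for T-type, 3 for S-type and 6 for M-type. Members read in all cells ran from 37 to 40 and the summed share from 8972 to 9376 CPM. Signs turned when 1 cell was left out for Psmc3ip in T-type against S-type (-2.74 to 2.86), Psmd9 in T-type (-2.10 to 0.72), S-type (-2.53 to 0.32) and M-type (-1.61 to 1.27) against NR, Psmg3 in S-type (-3.51 to 1.57) and M-type (-2.76 to 0.38) against NR, and Psmd10 in M-type against NR (-0.40 to 1.75). The cause of these shifts was not tested.

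Limits: each type is 1 sample of 5 or 6 cells, collection times and cultures cannot be told apart from the types, and amplification ahead of counting makes a single cell's high count uncertain. The shallowest T-type libraries bound what can be seen of low members such as Psmb8, Psmb9 and Psmg3. No paired analysis was possible because cell numbers were given in accession order and no test was run.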
